A study of Homo sapiens with 6 samples.

Results

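The cancer-testis antigen families examined here are the MAGEA, MAGEB, MAGEC, CT45A, SSX, PAGE, XAGE, GAGE and CTAG genes together with PRAME. Members were the protein-coding genes whose current symbol carries one of these family names, and 71 symbols fit. Of these, 54 had a current Ensembl identifier among the 20330 in the tables, 53 of them on chromosome X and PRAME on chromosome 22. The other 17 (CT45A1, CT45A2, CT45A3, CT45A6, CT45A7, CT45A8, CT45A9, CT45A10, CTAG1A, GAGE2E, GAGE13, MAGEA2, MAGEA9B, MAGEB6B, SSX2B, SSX4 and SSX4B) were not analysed here. RNA was sequenced from U251 cells, an established human glioma line, in 3 libraries of cells with stable overexpression of XLOC013218, a long noncoding RNA, and 3 libraries of control U251 cells. The series calls the replicates independent, but whether they came from separate cultures, whether the overexpressing cells are 1 clone or a mixed population, and what the control cells carry are not stated. The spread behind each p-value is that between these libraries and may be technical.

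Cancer-testis genes are normally active in germ cells of the testis. In most somatic tissues they are shut off, in large part by methylation of CpG sites in their promoters, and in tumours some of them become active again. Peptides of their proteins can be shown to T cells on HLA class I molecules, which is why they are studied as tumour antigens. MAGE proteins share a homology domain with which they bind RING-type ubiquitin ligases; MAGEA3 and MAGEA6 bind TRIM28. SSX proteins are transcriptional repressors known from the fusion gene of synovial sarcoma, CTAG1B encodes NY-ESO-1, and PRAME is a substrate receptor of cullin-2 ligases that represses retinoic acid receptor signalling. GAGE, PAGE and XAGE genes encode short related proteins, and CT45A genes encode near-identical nuclear proteins.

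In U251 cells the families were listed at or near 0, apart from a single pair of MAGEA genes and, at a low level, CT45A5. MAGEA3 and MAGEA6 averaged between 54.4 and 55.1 FPKM in both groups, FPKM being a fragment density corrected for transcript length and sequencing depth. CT45A5 was the only other member whose mean over all 6 libraries reached 1 FPKM, the filter on low values, and it was lower in overexpressing cells. The remaining 51 members stayed below 0.5 FPKM in every library, and 32 of them were listed at 0 in all 6.

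MAGEA3 and MAGEA6 lie in opposite orientation close to each other on the long arm of X, and their sequences are shown first because they decide how far the 2 levels can be told apart. In the RefSeq promoter table (GRCh38.p14) the 250 bases before the MAGEA3 start, chrX:152698544-152698793 on the plus strand, were letter for letter the same as the 250 bases before the MAGEA6 start, chrX:152769690-152769939 on the minus strand. MAGEA12 (chrX:152733507-152733756, plus strand) and MAGEA2B (chrX:152714378-152714627, plus strand) lie between them and are shown for contrast. Each promoter is written 5′ to 3′ with its CpG sites in capitals.
MAGEA3 and MAGEA6: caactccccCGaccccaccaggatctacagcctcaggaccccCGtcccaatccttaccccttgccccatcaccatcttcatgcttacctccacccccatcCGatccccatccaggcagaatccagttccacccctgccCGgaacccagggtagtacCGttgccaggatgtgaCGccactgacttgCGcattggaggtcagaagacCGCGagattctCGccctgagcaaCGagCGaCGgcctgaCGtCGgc
MAGEA12: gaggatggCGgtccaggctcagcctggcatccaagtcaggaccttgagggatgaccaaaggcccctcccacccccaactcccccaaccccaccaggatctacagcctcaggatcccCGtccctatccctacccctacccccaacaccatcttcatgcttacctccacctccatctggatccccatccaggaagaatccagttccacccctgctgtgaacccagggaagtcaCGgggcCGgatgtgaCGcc
MAGEA2B: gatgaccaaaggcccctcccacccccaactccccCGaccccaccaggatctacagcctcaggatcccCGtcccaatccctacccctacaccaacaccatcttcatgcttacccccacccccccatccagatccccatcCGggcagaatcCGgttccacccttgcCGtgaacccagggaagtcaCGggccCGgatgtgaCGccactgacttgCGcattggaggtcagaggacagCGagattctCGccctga

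The shared MAGEA3 and MAGEA6 promoter held 15 CpG sites, against 5 for MAGEA12 and 11 for MAGEA2B. The annotated starts fall at different places in the sequence these genes share. Over the 175 bases of MAGEA12 that aligned with MAGEA3, at 89.7% identity, MAGEA12 had 4 CpG sites and MAGEA3 had 6. Over the 222 aligned bases of MAGEA2B, at 91.9% identity, MAGEA2B had 11 and MAGEA3 had 10. For each gene the most upstream start in the table was taken. A promoter was found for 57 of the 71 symbols, with a median of 8 CpG sites. Over all genes, the 27305 promoters chosen this way had a median of 10 with quartiles at 3 and 23. MAGEA11, with 18 CpG sites, had more than MAGEA3 and was listed at no more than 0.03 FPKM.

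Letters of 4 motifs that contain a CpG were searched on both strands of the same 250-base windows. The letters TGACG, part of the cyclic AMP response element, were in 8 of the 10 MAGEA promoters in the table, the pair included, against 22.8% of the 57 members' promoters and 21.6% of all promoters. The letters TCCCGC, which E2F6 can bind, were in 12 of 12 GAGE promoters, 0 of 10 MAGEA promoters and 23.4% of all. GGGCGG, the GC box of SP1, was in 2 of 10 MAGEA promoters (MAGEA8 and MAGEA11) and in 42.2% of all; its complement can overlap TCCCGC. The letters CGGAAG, a form of the site that ETS factors bind, were in 0 of 10 MAGEA promoters and 16.7% of all. Other forms were not searched, and the shared MAGEA3 and MAGEA6 promoter holds CGGAAC. These are counts of letters, not of bound sites. Promoters within a family are related copies, that of MAGEA3 being the same as that of MAGEA6, so the family counts are not of independent promoters. MAGEA8, which has TGACG, was listed at no more than 0.16 FPKM.

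Between their coding sequences, 945 bases each in GENCODE 29, MAGEA3 and MAGEA6 differed at 18 positions. The stretch of 60 coding bases with the most differences runs from base 573 to base 632, counted from the A of the start codon, at chrX:152701405-152701464 on the plus strand for MAGEA3 and chrX:152767019-152767078 on the minus strand for MAGEA6 (GRCh38). The 4 differing letters are in capitals.
MAGEA3: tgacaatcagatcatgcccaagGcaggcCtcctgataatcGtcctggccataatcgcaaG
MAGEA6: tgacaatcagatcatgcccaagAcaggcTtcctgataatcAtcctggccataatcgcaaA

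Of all 50-base windows in MAGEA3 transcripts, 54.9% also occurred in a MAGEA6 transcript, and 52.0% of MAGEA6 windows occurred in MAGEA3. MAGEA12 transcripts held 2.8% of the MAGEA3 windows and MAGEA2B transcripts 5.38%, and 56.5% occurred in at least 1 other MAGEA gene. Reads from shared windows cannot be placed on 1 gene of the pair by sequence alone, so the split between MAGEA3 and MAGEA6 depends on the counting method and is uncertain. The sum of the pair is therefore given beside each gene's own value.

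MAGEA3 (ENSG00000221867, chromosome X) was at 56.15, 56.04 and 53.06 FPKM in the 3 overexpression libraries, against 56.52, 55.12 and 51.47 FPKM in the control libraries. The groups overlapped, and the control values spanned the overexpression values at both ends. The means were 55.1 ± 1.75 FPKM in overexpressing and 54.4 ± 2.61 FPKM in control cells (SD, n = 3 each). On the log2(FPKM + 1) scale the difference was 0.02 (SE 0.05, 95% interval -0.10 to 0.14, limma adjusted p = 0.921).

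MAGEA6 (ENSG00000197172, chromosome X) was at 53.56, 55.76 and 55.57 FPKM in overexpression libraries, against 56.47, 52.74 and 55.28 FPKM in control libraries. These groups overlapped too, with means of 55.0 ± 1.22 FPKM in overexpressing and 54.8 ± 1.91 FPKM in control cells (SD, n = 3 each). The log2 difference was 0.0038 (SE 0.05, 95% interval -0.11 to 0.12, limma adjusted p = 0.983). The exact permutation test over libraries gave p = 0.7 for MAGEA3 and p = 0.9 for MAGEA6, two-sided, where 3 libraries against 3 cannot go below 0.1.

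The summed level of the pair was 109.71, 111.8 and 108.63 FPKM in overexpression libraries, against 112.99, 107.86 and 106.75 FPKM in control libraries. MAGEA3 took between 48.8% and 51.2% of the sum in overexpressing cells and between 48.2% and 51.1% in control cells, close to an even split in every library. Each gene stood above 88.8% or more of the 20330 genes in every library. The pair made up between 98.2% and 99.3% of the summed FPKM of all 54 members in overexpressing cells, and between 96.7% and 96.9% in control cells; these shares move with CT45A5 as well as with the pair.

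**Figure D1:**
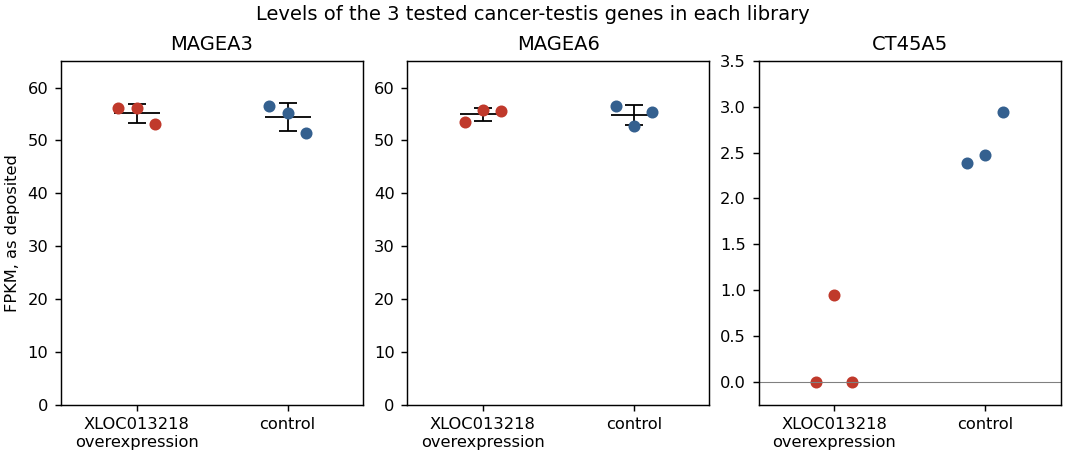
FPKM as deposited (vertical axis) of MAGEA3, MAGEA6 and CT45A5 in each library, with XLOC013218 overexpression on the left and control on the right of each panel; points are libraries, and for MAGEA3 and MAGEA6 the bars are mean ± SD (n = 3). MAGEA3 and MAGEA6 lie between 51.47 and 56.52 FPKM in both groups, while CT45A5 is at 0, 0.95 and 0 FPKM in overexpressing cells, below all 3 control values.

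CT45A5 (ENSG00000228836, chromosome X), one of a cluster of CT45A copies, was listed at lower values in overexpressing than in control cells, at a low level in both. It was listed at 0, 0.95 and 0 FPKM in overexpression replicates 1 to 3, against 2.39, 2.47 and 2.94 FPKM in control replicates 1 to 3. The groups did not overlap, which was so for 18.9% of the 11704 genes tested. The log2 difference was -1.52 (SE 0.25, 95% interval -2.08 to -0.97, limma adjusted p = 0.0382), and the exact two-sided permutation test over libraries gave p = 0.1, the smallest this design allows. Of the 3 tested members, CT45A5 alone passed an adjusted p of 0.05, beside 0.521% of all tested genes, 0.205% in the lower direction. It passed the filter on level, a mean of at least 1 FPKM, through its control values alone. At its overexpression level in both groups it would not have been tested. Its adjusted p and its call are therefore given as a description and carry no weight as support, and with no filter the limma adjusted p was 0.175. In bulk RNA, fewer cells with the transcript and less of it per cell cannot be told apart.

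The CT45A5 call depended on single libraries and on the scale. It was lost without overexpression replicate 1 or 3 (limma adjusted p = 0.0981 and 0.101) and without control replicate 1, 2 or 3 (limma adjusted p = 0.123, 0.137 and 0.138), and kept without overexpression replicate 2 (limma adjusted p = 0.00295). With a pseudocount of 0.1 FPKM the log2 difference was -3.62 (limma adjusted p = 0.104), so the size depends on the pseudocount. With the replicate number as a block it did not pass (limma adjusted p = 0.0733), and after rescaling to TPM it missed the threshold (limma adjusted p = 0.0530). Over its 13 alternatives the adjusted p in limma ran from 0.00295 to 0.175, and 3 of them passed. Among all genes, 61 were called with every library and 14, 63 and 23 without overexpression replicate 1, 2 or 3. Without control replicate 1, 2 or 3 the calls numbered 1, 1 and 2. The share of all genes listed at 0 was between 21.5% and 21.9% in overexpression libraries and between 22.6% and 23.3% in control libraries. Steps between low values, set against control replicate 2, placed relative depth at 0.78, 0.85 and 0.91 in overexpression replicates 1 to 3 and at 0.93, 1.0 and 0.94 in control replicates 1 to 3. By a second route, through overexpression replicate 2, the values were 0.78, 0.85 and 0.9 in overexpression and 0.94, 1.0 and 0.78 in control replicates. The first route thus put every overexpression library below every control library and the second did not, and the part of depth in the CT45A5 difference was not tested.

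**Figure D2:**
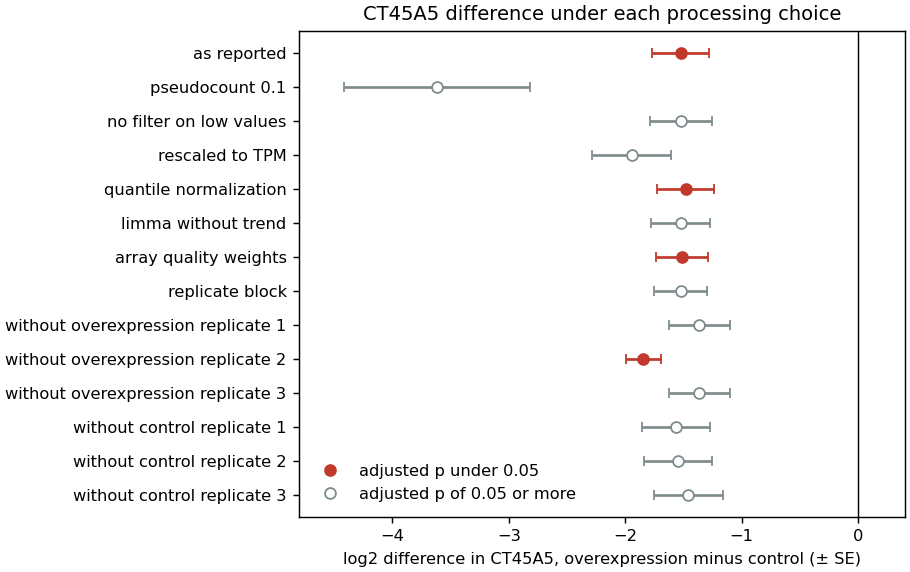
Log2 difference in CT45A5, overexpression minus control (horizontal axis, points with SE), under each processing choice (vertical axis); filled red points passed an adjusted p of 0.05 in limma and open grey points did not. Every difference lies below 0, and 3 of the 13 alternatives passed.

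The level listed for CT45A5 may belong to more than 1 copy. The coding sequence of CT45A5, 570 bases, was identical to those of CT45A6 and CT45A7 in GENCODE 29, and it differed at 1 base from CT45A3 and at 11 bases from CT45A10, the most distant of the 8 other copies. Of the 50-base windows in CT45A5 transcripts, 91.6% occurred in at least 1 other CT45A gene. The CT45A5 value therefore cannot be assigned to that copy with certainty.

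The other MAGEA genes were near or at 0 in both groups. MAGEA12 was at 0.07, 0.06 and 0.06 FPKM in overexpression libraries and at 0.03, 0.11 and 0 FPKM in control libraries, with overlap. MAGEA2B was listed at 0.38 FPKM in overexpression replicate 2 and at 0 in the other 5 libraries. MAGEA4 reached 0.07 FPKM, MAGEA8 0.16 FPKM, and MAGEA10 and MAGEA11 each 0.03 FPKM. MAGEA1, the founding gene of the family, and MAGEA9 were listed at 0 in all 6 libraries. The summed level of the 10 listed MAGEA genes was 110 ± 1.88 FPKM in overexpressing and 109 ± 3.40 FPKM in control cells (SD, n = 3 each).

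MAGEA12 and MAGEA2B were near 0 although they sit between MAGEA3 and MAGEA6. In the gene order of RefSeq (GRCh38.p14), the listed genes between MAGEA3 and MAGEA6 are MAGEA2B, CSAG1 and MAGEA12. CSAG1, itself a cancer-testis gene, was at 0.25, 0.25 and 0.32 FPKM in overexpression libraries, against 0.1, 0 and 0 FPKM in control libraries. Those groups did not overlap, but CSAG1 was too low to be tested. The share of 18.9% without overlap covers tested genes alone, and the share among genes this low was not computed. Beyond MAGEA6, CETN2, a centrosomal protein, and NSDHL, an enzyme of cholesterol synthesis, ran between 26.85 and 31.59 FPKM. On the other side of MAGEA3, GABRA3, a GABA receptor subunit, was at 5.26, 5.26 and 4.91 FPKM in overexpression libraries, against 6.58, 5.72 and 5.63 FPKM in control libraries. Its groups did not overlap either, in the opposite direction (limma adjusted p = 0.482). GABRE, another subunit, was at no more than 33.33 FPKM and MAGEA10, between these 2 genes, at no more than 0.03 FPKM. CSAG2, CSAG3, MAGEA2 and GABRQ were not analysed here.

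**Figure D3:**
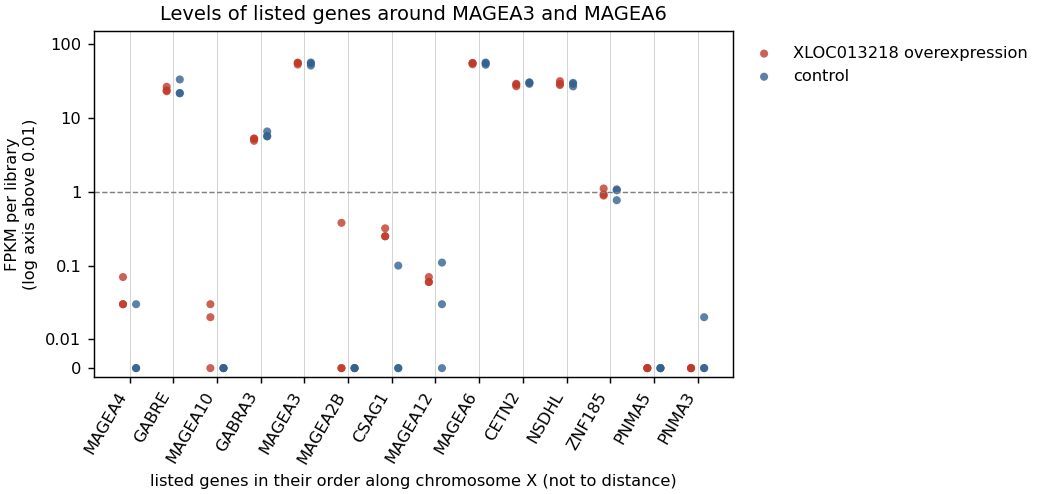
FPKM per library (vertical axis, logarithmic above 0.01) of listed genes around MAGEA3 and MAGEA6 in their order along chromosome X (horizontal axis, not to distance); red points are overexpression libraries and blue points control libraries. MAGEA3 and MAGEA6 stand above 50 FPKM while MAGEA2B, CSAG1 and MAGEA12 between them stay at or under 0.38 FPKM.

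Among MAGEB and MAGEC genes none reached 0.5 FPKM. MAGEC3 was at 0.07, 0.12 and 0.3 FPKM in overexpression libraries and at 0.11, 0 and 0.34 FPKM in control libraries. MAGEC2, a partner of TRIM28 in tumour cells, was at 0.06, 0.23 and 0.02 FPKM in overexpression libraries and at 0.05, 0 and 0.06 FPKM in control libraries. Both overlapped between the groups. MAGEB6 reached 0.13 FPKM, MAGEB17 0.22, MAGEB10 0.1, MAGEB16 0.06 and MAGEB2 0.03 FPKM, each at 0 in at least 2 libraries. MAGEB1, MAGEB3, MAGEB4, MAGEB5, MAGEB18 and MAGEC1 were listed at 0 throughout.

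The families of short proteins were no higher. GAGE12F and GAGE12G had the same value in each library, 0.42, 0 and 0 FPKM in overexpression libraries and 0.18, 0.38 and 0 FPKM in control libraries. Their coding sequences were identical, and 100% of the 50-base windows of GAGE12G occurred in GAGE12F, so reads from those windows cannot be assigned to either copy by sequence. GAGE1 reached 0.05 FPKM and GAGE2A, GAGE10, GAGE12B, GAGE12C, GAGE12D, GAGE12E, GAGE12H and GAGE12J were listed at 0. PAGE1 and PAGE2B were above 0 in 1 control library each, at 0.17 and 0.15 FPKM, and PAGE2, PAGE3, PAGE4 and PAGE5 were at 0. XAGE1A, XAGE1B, XAGE2, XAGE3 and XAGE5 were at 0 in every library.

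SSX2 was above 0 in overexpression replicate 2 alone, at 0.04 FPKM, and SSX1, SSX3, SSX5 and SSX7 were at 0. CTAG1B, CTAG2 and PRAME were listed at 0 in all 6 libraries. The lowest value above 0 for any member was 0.02 FPKM, and a member at 0 may have a level too low to appear at 2 decimals or reads that were placed on a near-identical copy.

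Of the 19 members that were above 0 somewhere but below the filter, 12 were above 0 in both groups, 4 in overexpression libraries alone and 3 in control libraries alone. None was above 0 in all 6 libraries. Their summed level was 1.09, 1.11 and 0.82 FPKM in overexpression libraries, against 1.26, 1.16 and 0.52 FPKM in control libraries, with overlap. The number of members above 0 was 9, 13 and 13 in overexpression libraries and 14, 10 and 8 in control libraries. These low members did not separate the groups. CT45A5, with a mean of 1.46 FPKM, was the member just above the filter, and GAGE12F and GAGE12G, with means of 0.163 FPKM, were those just below it.

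**Figure D4:**
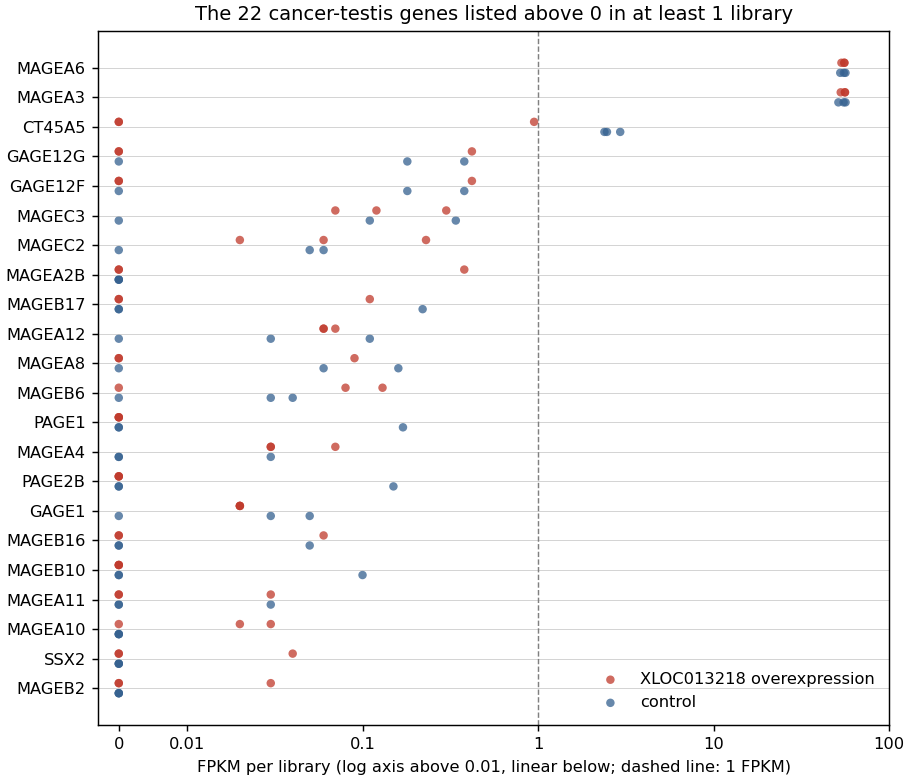
FPKM per library (horizontal axis, logarithmic above 0.01) of each cancer-testis gene above 0 in at least 1 library (rows, by mean level), with overexpression libraries in red above control libraries in blue. MAGEA6 and MAGEA3 stand apart above 50 FPKM, CT45A5 comes next, and the other 19 genes stay at or under 0.42 FPKM, with no order of the groups that holds for them all.

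Set beside other genes, most members were at or near 0. A mean of at least 1 FPKM was reached by 3 of 54 members (5.56%), against 378 of 689 other protein-coding genes of chromosome X (54.9%) and 60.5% of all other protein-coding genes. Members listed at 0 in all 6 libraries made up 59.3%, against 13.8% of the other protein-coding genes of X. Genes of these families were recognised as restricted to germ cells and tumours in the first place, so these shares describe the cell line and are given without a test.

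**Figure D5:**
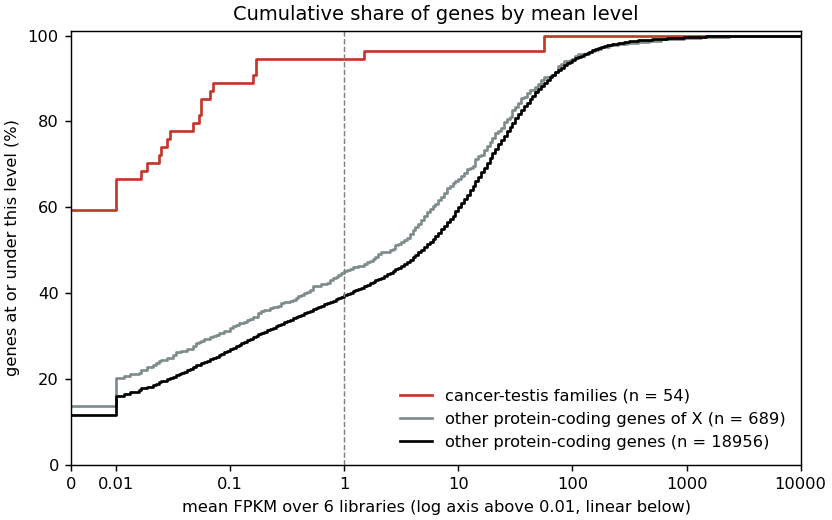
Cumulative share of genes (vertical axis, %) at or under a mean level over 6 libraries (horizontal axis, FPKM, logarithmic above 0.01) for the 54 cancer-testis genes (red), 689 other protein-coding genes of X (grey) and 18956 other protein-coding genes (black); the dashed line is 1 FPKM. The red curve starts at 59.3% and lies above the other 2, and its last step is at the level of MAGEA3 and MAGEA6.

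Type II MAGE genes, the relatives that are widely expressed in somatic tissue, gave a contrast in level. Of 12 listed, 8 were tested, 0 passed in limma and 2 had an unadjusted p under 0.05, with a median log2 difference of -0.07, against -0.00078 for all tested genes, of which 1488 of 11704 had an unadjusted p under 0.05. MAGED1, a regulator of apoptosis and neurotrophin signalling, was at 44.6 ± 2.34 FPKM in overexpressing and 50.1 ± 1.21 FPKM in control cells (limma adjusted p = 0.262). MAGED4B was at 17.6 ± 4.54 FPKM in overexpressing and 23.5 ± 0.670 FPKM in control cells (limma adjusted p = 0.289). MAGED4 was at 13.8 ± 3.36 FPKM in overexpressing and 13.1 ± 1.37 FPKM in control cells (limma adjusted p = 0.918). In overexpression replicate 2 alone MAGED4 was the higher, at 17.64 FPKM against 12.9 FPKM for MAGED4B. How far reads of MAGED4 and MAGED4B can be told apart was not examined. NSMCE3, a subunit of the SMC5-SMC6 complex, was at 33.8 ± 1.18 FPKM in overexpressing and 36.1 ± 0.938 FPKM in control cells (SD, n = 3 each; limma adjusted p = 0.542). MAGEE2, MAGEL2 and NDN were listed at 0.

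Genes for partner proteins of MAGE and PRAME had transcripts in every library. All 19 were tested, 0 passed in limma and 3 had an unadjusted p under 0.05, with a median log2 difference of -0.05. Low adjusted p values among them belonged to RARG, a retinoic acid receptor, at 10.9 ± 0.382 FPKM in overexpressing and 13.3 ± 0.830 FPKM in control cells (SD, n = 3 each; limma adjusted p = 0.189), and to HDAC3, a histone deacetylase (limma adjusted p = 0.367). TRIM28, the ligase partner of MAGEA3 and MAGEA6, was named after its values were seen; it was at 279 ± 7.23 FPKM in overexpressing and 281 ± 3.99 FPKM in control cells.

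Genes that silence germline genes or maintain DNA methylation showed no called change. Of 28 tested, 0 passed in limma and 0 had an unadjusted p under 0.05, and the median log2 difference was 0.0023. Their lowest adjusted p values were those of MBD2, a reader of methylated CpG, TASOR, a subunit of the HUSH silencing complex, and SIRT1, a deacetylase (limma adjusted p = 0.477, 0.539 and 0.556). CTCFL, the germline paralogue of CTCF, was at no more than 0.09 FPKM.

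Other genes classed as cancer-testis antigens ranged from 0 to well above the filter. Of 62 listed, 14 were at 0 in all libraries and 16 were tested, of which 0 passed in limma and 1 had an unadjusted p under 0.05, with a median log2 difference of 0.07. Some of those tested are mitotic genes that dividing cells use in general. KIF2C, a mitotic kinesin, was at 72.1 ± 1.39 FPKM in overexpressing and 65.2 ± 1.62 FPKM in control cells (limma adjusted p = 0.250). PBK, a mitotic kinase, was at 60.7 ± 1.64 FPKM in overexpressing and 56.3 ± 1.96 FPKM in control cells (limma adjusted p = 0.431), and ELOVL4, a fatty acid elongase, at 8.72 ± 0.543 FPKM in overexpressing and 7.70 ± 0.0436 FPKM in control cells (SD, n = 3 each; limma adjusted p = 0.470).

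Markers of germ cells, in which these families are normally active, were low. Of 13 germ cell markers, 5 were at 0 in every library, among them PRM1, PRM2, TNP1 and TNP2, the nuclear packaging proteins of sperm, and the whole list summed to between 1.13 and 2.43 FPKM in overexpression libraries and between 2.02 and 3.77 FPKM in control libraries. NANOS3, the highest germ cell marker and the only one tested, was at 1.25, 0.6 and 0.98 FPKM in overexpression libraries, against 2.62, 1.37 and 1.59 FPKM in control libraries (limma adjusted p = 0.286). Its mean was 0.943 FPKM in overexpressing and 1.86 FPKM in control cells, so it passed the filter on level through its control values. Its adjusted p and lack of overlap are therefore given as a description and carry no weight as support. Of 6 Sertoli and Leydig cell markers, AMH reached 9.44 FPKM and INSL3 was at 0. Astroglial and glioma markers VIM, CD44 and SOX2 averaged 3581, 1088 and 102 FPKM in overexpressing cells and 3840, 1178 and 116 FPKM in control cells, whereas OLIG2, AQP4 and CHI3L1 stayed at or under 0.36 FPKM. GFAP, the astrocyte filament, was at 30.05, 14.36 and 20.43 FPKM in overexpression libraries, against 34.68, 45.98 and 44.13 FPKM in control libraries (limma adjusted p = 0.107). GFAP, SOX2, EGFR, NANOS3 and the epithelial marker KRT8 were, like CT45A5, lower in every overexpression library than in any control library. The other 4 tested astroglial genes overlapped between the groups. No overlap, in either direction, was found for 3 of 7 tested astroglial, 1 of 1 germ cell and 1 of 3 epithelial genes, and for 18.9% of all tested genes. The part of these markers in the CT45A5 difference was not tested.

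Of the other marker lists, immune genes summed to between 11.2 and 12.7 FPKM in overexpressing and between 7.78 and 9.20 FPKM in control cells, mostly from CD68, with CD3E at 0. CD68, a macrophage marker that other cells also express, was at 9.79, 11.11 and 9.53 FPKM in overexpression libraries, against 7.46, 7.49 and 6.61 FPKM in control libraries (limma adjusted p = 0.0834). Its groups did not overlap, in the direction opposite to CT45A5. That lack of overlap was found for 1 of 2 tested immune genes and for 18.9% of all tested genes. Neuron markers summed to no more than 18.7 FPKM in overexpressing and 18.3 FPKM in control cells. Epithelial markers summed to no more than 218 FPKM in overexpressing and 232 FPKM in control cells, nearly all from KRT8 and KRT18, with EPCAM at no more than 0.06 FPKM. No tested gene of these 6 lists passed in limma. An unadjusted p under 0.05 was found for 3 of 7 tested astroglial genes, 1 of 2 immune genes and 1 of 3 epithelial genes. It was found for 0 of 3 neuron genes and 0 of 1 Sertoli and Leydig gene, against 1488 of all 11704. The count was 1 of 1 for germ cell genes, but that gene, NANOS3, passed the filter through its control values.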

How the data were processed

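RNA sequencing of 6 U251 libraries was analysed, 3 per group by the sample titles. The authors deposited 1 table per library of FPKM values rounded to 2 decimals. The build hg18 and the tools RSEM 1.3.1, Cufflinks 2.2.1, edgeR, Bowtie and TopHat are named in the submitters' processing notes, which do not say what made the FPKM. The labels' protocols describe poly(A)-selected RNA, whereas the series' design text describes cytoplasmic RNA without such selection.

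The members and lists were chosen with earlier results of these data known. Symbols were found for 19447 of 20330 identifiers, and chromosomes and gene types from GENCODE 29. Assembled loci were not used. Depth in reads is unknown: relative depth estimated from steps between low values differed between 2 routes, at 0.94 and 0.78 for control replicate 3. FPKM over the Ensembl genes summed to between 598682.9 and 621921.6 per library.

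Genes with a mean of at least 1 FPKM, 11704 in all, were tested on log2(FPKM + 1), a scale that understates changes of low genes, by two-sided limma-trend tests (R 4.3.3, limma 3.58.1), with p-values adjusted over all of them by Benjamini-Hochberg and a threshold of 0.05. The procedure was tested on simulated data in which every changed gene had a higher mean level than CT45A5, so that test does not cover CT45A5. Every member with a mean of at least 1 FPKM is named with its 6 values, members below it with their range, and from each list up to 3 genes of lowest adjusted p, or of highest level for cell markers; other genes were named after their values were seen. Sequences were taken from RefSeq (GRCh38.p14) and GENCODE 29 and aligned with Biopython 1.88. The build named in the notes differs, so coordinates are given for sequences alone. Same-numbered libraries did not deviate together, so numbers were not treated as pairs. Some genes of the lists are not reported here.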

Additional observations from a re-analysis of the deposited data

How the results depend on the processing

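The number of genes called among all tested was 61 (37 higher, 24 lower). It was 1 when low genes were kept, 1 when limma used no trend, 196 with array quality weights and 19 with a replicate block, and between 1 and 63 with 1 library left out; after rescaling to TPM it was 61 again, as 30 higher and 31 lower. Of the cancer-testis members, 1 was called; the number was 0 with a pseudocount of 0.1, with no filter, after rescaling to TPM, without a trend and with a replicate block, and between 0 and 1 with 1 library left out. The log2 difference in CT45A5 was -3.62 with a pseudocount of 0.1, -1.52 with no filter, -1.94 after rescaling to TPM, -1.52 without a trend, -1.52 with a replicate block, and between -1.85 and -1.36 with 1 library left out; it passed under quantile normalization, with array quality weights and without overexpression replicate 2 but in none of the other alternatives, and the cause was not tested. MAGEA3 lay between -0.02 and 0.05 and MAGEA6 between -0.02 and 0.03 over 13 alternatives each, with 0 calls in limma. The MAGEA sum, overexpression over control, was 1.009 and lay between 0.9977 and 1.027 with 1 library left out. The ratio for CT45A5 was not computed without overexpression replicate 2, where the other 2 overexpression values were 0. Correlations of deviations between same-numbered libraries were -0.04, -0.056 and 0.049, so the replicate numbers are not shown to pair the libraries. Raising the level filter to 2 FPKM left 2 members and lowering it to 0.5 FPKM left 3. Depth in reads is unknown, so no limit can be set for members listed at 0.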
